A study of Mus musculus with 78 samples.

Results

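RNA of the hippocampus was compared between mice under circadian rhythm disruption (CRD) and mice on a regular light cycle (CON), all labelled 8 weeks old. Of the 78 RNA-seq libraries of the series, the 5 CRD and the 5 CON libraries of this tissue and age were taken, by their labels. This tissue and age and the gene lists below were chosen with earlier results of these data known. All were C57BL/6, with no transgene or drug named in the labels. CON mice lived on a daily cycle of 12 h light and 12 h dark. For CRD mice the light and dark phases were swapped every 3 days over 4 weeks, then 48 h light alternated with 48 h dark over 3 weeks, and light was constant in the 1 week that followed. Since these stages add up to the age on the label, that age may not be the age at collection. Both groups ate and drank freely. Groups set beside them were the hippocampus at 18 months (4 CON, 5 CRD) and the hypothalamus at 8 weeks (5 CON, 5 CRD), on the same schedules. The sources used here do not give the hour of collection, the sex or the batch of a library, so a shift of the body clock and a change of its level cannot be told apart.

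The circadian clock is a feedback loop in which the Arntl and Clock proteins switch on their own repressors (the Per and Cry genes) and output genes such as Dbp and Ciart, through DNA sites called E-boxes. The hippocampus, a centre of memory, keeps its own rhythm under the lead of the suprachiasmatic nucleus, which reads light. Interferons, the messengers of antiviral defence, act through factors that include Stat2 and Irf9 on interferon-stimulated response elements, and a low tone of this pathway is present in healthy brain. Chaperone genes of the endoplasmic reticulum (ER) answer to unfolded proteins through the ER stress element.

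Promoters of 5 genes whose values are given below are shown with the motif letters in capitals, because each carries the site through which its pathway acts in textbook accounts. Sequences run 5′ to 3′ on the strand of the gene, from 250 bases before to 50 bases after its start, and come from RefSeq (GRCm38.p6). Isg15 (chr4:156200769-156201068, minus strand) and Bst2 (chr8:71537423-71537722, minus strand) hold 3 and 2 overlapping response elements (TTTC and TTTC with 2 bases between them, or GAAA and GAAA on the other strand).
Isg15: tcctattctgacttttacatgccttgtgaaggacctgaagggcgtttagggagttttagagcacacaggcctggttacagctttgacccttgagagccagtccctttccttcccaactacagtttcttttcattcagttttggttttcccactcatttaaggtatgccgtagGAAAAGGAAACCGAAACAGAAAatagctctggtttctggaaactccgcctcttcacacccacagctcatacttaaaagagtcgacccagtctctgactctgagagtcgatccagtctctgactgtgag
Bst2: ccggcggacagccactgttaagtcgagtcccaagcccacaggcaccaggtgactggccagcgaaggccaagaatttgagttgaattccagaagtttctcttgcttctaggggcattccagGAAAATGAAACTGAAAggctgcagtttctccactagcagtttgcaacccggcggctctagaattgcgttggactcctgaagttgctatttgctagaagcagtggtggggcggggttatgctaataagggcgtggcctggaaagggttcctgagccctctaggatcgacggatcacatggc
Ciart (chr3:95882179-95882478, minus strand) holds 3 E-boxes (CACGTG, the same on both strands).
Ciart: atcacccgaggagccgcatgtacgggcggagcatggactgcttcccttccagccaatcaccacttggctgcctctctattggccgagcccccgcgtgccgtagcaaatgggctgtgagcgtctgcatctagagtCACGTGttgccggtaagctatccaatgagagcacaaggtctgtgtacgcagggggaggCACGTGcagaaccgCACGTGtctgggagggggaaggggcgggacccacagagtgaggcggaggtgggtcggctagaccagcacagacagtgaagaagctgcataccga
Hspa5 (chr2:34771840-34772139, plus strand) and Calr (chr8:84846882-84847181, minus strand) hold 1 ER stress element each (CCAAT and CCACG with 9 bases between them, or on the other strand CGTGG and ATTGG, as in Calr).
Hspa5: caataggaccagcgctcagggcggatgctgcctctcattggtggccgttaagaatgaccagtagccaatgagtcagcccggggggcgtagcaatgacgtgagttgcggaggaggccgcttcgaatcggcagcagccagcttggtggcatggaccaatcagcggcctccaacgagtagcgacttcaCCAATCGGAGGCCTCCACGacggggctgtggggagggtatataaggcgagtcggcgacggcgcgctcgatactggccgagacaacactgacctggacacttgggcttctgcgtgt
Calr: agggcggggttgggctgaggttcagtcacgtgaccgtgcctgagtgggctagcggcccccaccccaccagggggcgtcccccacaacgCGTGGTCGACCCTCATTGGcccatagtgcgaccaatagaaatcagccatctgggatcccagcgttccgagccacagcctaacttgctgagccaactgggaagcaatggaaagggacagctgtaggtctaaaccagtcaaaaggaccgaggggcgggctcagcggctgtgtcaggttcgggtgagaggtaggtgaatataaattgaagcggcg

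Of 32851 mouse promoters of this length, 3.44% held the interferon-stimulated response element, 7.15% an E-box and 0.119% the ER stress element. Among the 11354 tested genes with a promoter in the table these shares were 3.66%, 11.2% and 0.176%. Among members of the lists below with a promoter in the table, the response element was found in 9 of 14 interferon genes, the E-box in 5 of 18 clock genes and the ER stress element in 5 of 12 ER chaperone genes. The other 3 motifs searched, on both strands, matched 1 list member each. The D-box (TTAT followed by GTAA; 0.938% of promoters) was found in 1 of 18 clock genes, Per3. The sterol regulatory element (TCAC and CCAC with 1 base between them; 1.24%) was found in 1 of 16 sterol genes, Hmgcs1, and the heat shock element (GAA, TTC and GAA, each 2 bases apart; 0.603%) in 1 of 7 heat shock genes, Hsph1. A match is a stretch of letters and not a shown binding site. Ifi27l2a and Rtp4 had no entry.

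Values were FPKM (fragments per length of transcript and per mapped total), which leaves sequencing depth unknown and allows no intervals for counting error. The table listed 17344 to 17595 genes above 0 per library. The label of the tissue was borne out by its markers. Prox1 and C1ql2, which mark granule cells of the dentate gyrus, stood at 15.0 ± 0.452 and 34.2 ± 1.71 FPKM (SD, n = 5) in CON hippocampus, against 4.79 ± 0.371 and 7.01 ± 0.443 in CON hypothalamus. Hcrt and Pmch, peptides of hypothalamic neurons, stood at 0.486 ± 0.162 and 1.02 ± 0.363 FPKM in CON hippocampus, against 193 ± 47.4 and 604 ± 124 in hypothalamus. The Y-linked genes Eif2s3y and Ddx3y stood at 15.05 to 30.54 and 9.20 to 18.36 FPKM in the 8-week hippocampus, and at 0.14 to 0.69 and 0.00 to 0.06 in all 9 libraries of 18 months. The ages thus also differed in Y-linked transcripts, as male and female mice do, and age and this difference cannot be told apart in any comparison of the ages.

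CRD replicates 2 and 4 stood apart. The counts and main genes are given with all 5 CRD libraries and with the other 3. Replicates 2 and 4 were set aside in the second case for Ttr under 100 FPKM. Ttr, the main transcript of the choroid plexus (the tissue that makes cerebrospinal fluid), was at 86.4 and 40.7 FPKM there, against 6608 to 12211 in the other CRD libraries and 3000.1 to 9709 in CON. Over the whole choroid plexus list, 18 genes, summed FPKM was 162 and 120 in these libraries, 7562 to 13718 in the other CRD libraries and 3497 to 10907 in CON. Replicate 2 also had the highest sum of FPKM over all genes, 572255 against 443795 to 458956 in the other CRD libraries and 432120 to 443167 in CON.

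Transcript length moved with the groups. The tested genes were split into 5 classes by transcript length, up to 1965 bases in the shortest and from 5293 bases in the longest. The median level of the longest class relative to the shortest, taken against the CON mean on the log2 scale, was -0.06 to 0.09 in CON. It was -0.13, -0.88, -0.16, -0.27 and -0.10 in CRD replicates 1 to 5, below each CON library. Its part in the results below was not tested, and the number of members in the longest class is given beside the lists of neuronal and clock genes.

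**Figure D1:**
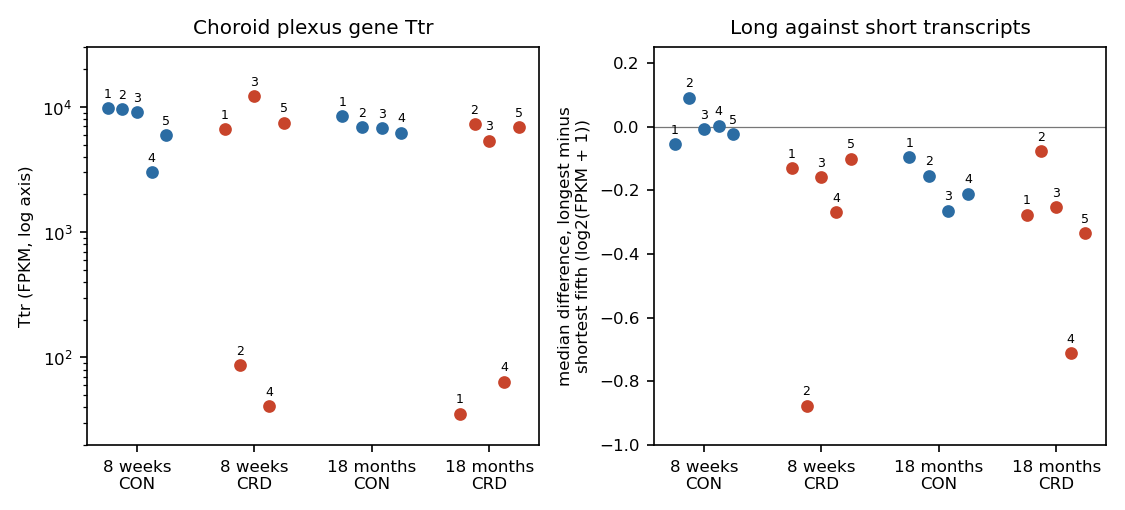
Left, Ttr in FPKM on a log axis in each of the 19 hippocampus libraries, by age and schedule, with the replicate number above each point. Right, the median level of the longest transcripts minus that of the shortest, in log2(FPKM + 1) against the mean of the 8-week CON libraries; CRD replicate 2 of 8 weeks is the lowest, at -0.88.

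No gene passed the test in the 8-week comparison. limma tested 14313 genes on log2(FPKM + 1) and, with Benjamini-Hochberg adjustment over all of them, called 0 (0%) under the threshold of 0.05; the smallest adjusted p was 0.167. Without CRD replicates 2 and 4 it called 0 of 14319 (0%), with a smallest adjusted p of 0.557. Directions below are therefore differences of these libraries and not called changes. As a description, a gene is termed nominally higher or lower where its unadjusted limma p was under 0.05, which 2948 genes (20.6%) met with 5 CRD libraries and 1223 (8.54%) with 3. With 5 CRD libraries 935 genes (6.53%) were nominally higher in CRD and 2013 (14.1%) nominally lower. With 3 they were 395 (2.76%) and 828 (5.78%). The split depends on scaling: after median-of-ratios scaling 1466 were higher and 1454 lower with 5 CRD libraries, and 532 and 652 with 3. The median over all genes was -0.05 with 5 and -0.02 with 3, and about 0 after that scaling (-0.004 and 0.004). By the groups' ranges alone, all 5 CRD libraries lay above all CON libraries for 195 genes (1.36%) and below them for 634 (4.43%). The other 3 CRD libraries lay above for 463 genes (3.23%) and below for 916 (6.40%). Without CON replicate 2 the 2948 nominal genes were 1759. In bulk tissue, fewer cells of a type and less RNA per cell cannot be told apart, and since no label ties a library to its own animal, the p-values cover only the spread among these libraries, which may be technical.

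Genes of the interferon response were lower in CRD at 8 weeks. Of 18 members tested (of 20; Mx1 and Mx2 were not among the tested symbols), all 18 had negative differences with 5 and with 3 CRD libraries. The median was -0.76 with 5 and -0.79 with 3, on the log2(FPKM + 1) scale, against -0.05 and -0.02 over all genes. With 5 libraries 11 were nominally lower and 0 higher, and with 3 it was 4 and 0, against 14.1% and 5.78% of all genes lower. After median-of-ratios scaling these were 9 and 4.

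Ifi27l2a, an interferon-induced mitochondrial protein gene (chromosome 12, 103442167 to 103443680, GRCm38), had 7.12, 54.5, 31.9, 16.7 and 26.02 FPKM in CON replicates 1 to 5. In CRD replicates 1 to 5 it had 4.33, 7.37, 10.02, 1.82 and 3.12. The groups overlapped through CON replicate 1, which lay under CRD replicates 2 and 3. Means were 27.2 ± 17.9 in CON and 5.33 ± 3.33 in CRD (SD, n = 5 each), a log2 difference of -2.06 ± 0.45 (SE; adjusted p = 0.167), and -1.91 ± 0.50 with 3 CRD libraries. Rtp4, a chaperone of receptors and an interferon target (chromosome 16, 23520291 to 23614222), had 3.18, 10.7, 10.2, 5.41 and 7.81 FPKM in CON. Its CRD values were 2.27, 2.99, 2.99, 1.76 and 1.90. These groups did not overlap, though CON replicate 1 was close to CRD replicates 2 and 3. Its difference was -1.24 ± 0.32, and -1.24 ± 0.38 with 3 CRD libraries. Epsti1, an interferon-responsive gene outside the list (chromosome 14, 77904239 to 78002657), had 0.93, 1.29, 1.35, 1.11 and 1.12 FPKM in CON and 0.79, 0.68, 0.84, 0.58 and 0.61 in CRD. Each CRD library lay below each CON library, and the difference was -0.34 ± 0.10. Epsti1 was named for its call between the ages, which used these same values, so it does not add to the list.

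Among the regulators, Irf7, the factor that amplifies the response, had 1.92, 6.63, 7.29, 3.86 and 6.24 FPKM in CON and 0.94, 1.08, 3.0, 0.44 and 1.19 in CRD. CRD replicate 3 lay above CON replicate 1, and the other CRD libraries below all CON libraries; the difference was -1.40 ± 0.44, and -1.17 ± 0.52 with 3 libraries. Irf9, the DNA-binding subunit of the factor that the interferon receptors switch on, had 7.27, 14.7, 13.9, 7.66 and 10.8 FPKM in CON. In CRD it had 6.22, 6.16, 5.95, 3.73 and 4.86, with no overlap, a difference of -0.86 ± 0.27 and, with 3 libraries, -0.78 ± 0.31. Its partner Stat2 differed by -0.46 ± 0.23, with overlapping groups. Of the receptor subunits, Ifnar1 differed by -0.07 ± 0.14 and Ifnar2 by 0.06 ± 0.10, while Ifngr2, of the interferon gamma receptor, was nominally higher (0.18 ± 0.07; 0.14 ± 0.08 with 3, no longer nominal). Of the 15 sensors and factors tested, 5 were nominally lower and 1 higher with 5 CRD libraries, against 14.1% and 6.53% of all genes. With 3, 1 (Irf9) was lower, against 5.78%. Medians were -0.20 and -0.16. After median-of-ratios scaling 3 were lower and 1 higher with 5 CRD libraries, and 1 and 1 with 3.

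Of the effector genes, Bst2, the tether of budding virus whose promoter is shown above, had 19.2, 44.7, 47.1, 12.7 and 31.96 FPKM in CON and 12.9, 6.12, 18.1, 4.26 and 13.6 in CRD. CON replicate 4 fell within the CRD range, and CRD replicates 2 and 4 were the lowest of all 10 libraries. The difference was -1.42 ± 0.48 with 5 and -0.88 ± 0.52 with 3 CRD libraries, the second not nominal. Isg15, a ubiquitin-like modifier, had 2.45, 10.4, 6.90, 5.04 and 7.27 FPKM in CON and 1.32, 3.34, 4.81, 2.47 and 2.38 in CRD, and again CON replicate 1 lay inside the CRD range. Its difference was -0.90 ± 0.43, and -0.95 ± 0.52 with 3. Xaf1, a proapoptotic interferon target, was the other member besides Rtp4 whose 3 CRD libraries all lay below CON (-0.81 ± 0.27). Oas3 was at 0.35 to 0.93 FPKM in all libraries and differed by -0.11. Near-identical copies such as Ifit3 and Ifit3b (-0.78 and -0.68) are uncertain one by one, since the division of shared reads was not given in the sources used here.

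CON was itself uneven. Summed over the interferon response list, CON libraries had 89.2, 285, 243, 125 and 209 FPKM, and CRD libraries 69.8, 98.9, 125.1, 54.3 and 71.6. CON replicate 1 was low and the CRD libraries spanned less than the CON libraries did. The list median ran from -0.99 (without CON replicate 1) to -0.67 (without CON replicate 3) when 1 library was left out. Markers of resting microglia, the immune cells of the brain, had a median of -0.03 over 12 genes with 5 CRD libraries and -0.12 with 3, with 0 nominal in either; their part was not tested.

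**Figure D2:**
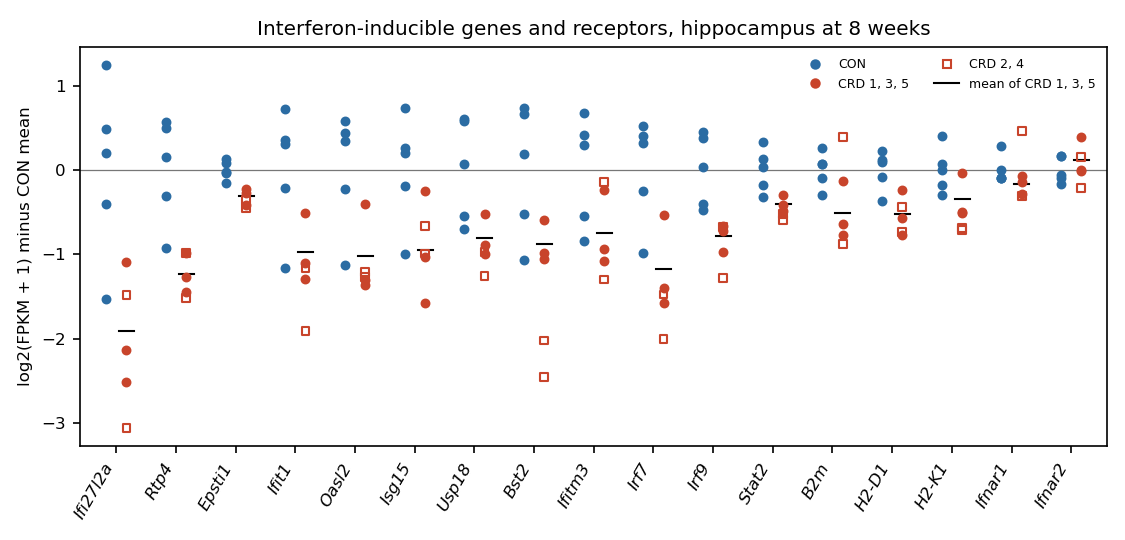
Interferon-inducible genes, their regulators, MHC class I genes and interferon receptors at 8 weeks, as log2(FPKM + 1) minus the CON mean for each of the 10 libraries; open squares are CRD replicates 2 and 4, and bars are means of CRD replicates 1, 3 and 5. Irf9, Rtp4 and Epsti1 have no overlap between schedules, while the receptors Ifnar1 and Ifnar2 lie around 0.

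Genes of MHC class I, which presents peptides to T cells and is raised by interferon, had the same sign. Of 11 tested, 10 were negative, with a median of -0.40 in both fits. Of these genes 3 were nominally lower with 5 CRD libraries and 5 with 3, and 0 higher, against 14.1% and 5.78% of all genes lower. H2-D1, a class I heavy chain (chromosome 17, 35262730 to 35267499), had 23.6, 32.9, 33.4, 28.97 and 36.2 FPKM in CON and 17.6, 22.4, 25.9, 18.1 and 20.4 in CRD. CON replicate 1 lay inside the CRD range and the other CON libraries above it. The difference was -0.55 ± 0.12, and -0.52 ± 0.14 with 3. B2m, the shared light chain, differed by -0.41 ± 0.20 with 5 CRD libraries, of which replicate 2 was the highest of all 10 at 347 FPKM, and by -0.51 ± 0.17 with 3. Psmb8, a subunit of the immunoproteasome, differed by -0.50 ± 0.19 and -0.54 ± 0.19, and Psmb10 by 0.24 ± 0.12 and 0.04 ± 0.08. Heavy chain genes of the H2 family share sequence and are uncertain one by one.

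The interferon difference had the other sign at 18 months, and the difference of the effects was called for 3 genes. At 18 months limma called 0 genes (0%) and 749 (5.23%) were nominal, while 13 of the 18 interferon genes were nominally higher in CRD and 0 lower, with a median of 1.22. Summed over the interferon response list, CON libraries of 18 months had 183, 157, 99.9 and 137 FPKM, and CRD libraries 189, 1098, 273, 264 and 334. CRD replicate 2 of that age stood far above the others. Without it, an alternative chosen after seeing the data, the median was 0.73, with 12 of the 17 members still tested nominally higher and 0 lower; without another library of that age it was 1.08 to 1.36. Of 14313 genes tested for the effect at 18 months minus the effect at 8 weeks, limma called 3 (0.0210%), and 363 (2.54%) were nominal, 92 (0.643%) of them lower. The called genes were Ifi27l2a at 4.01 ± 0.65, Rtp4 at 2.91 ± 0.46 and Epsti1 at 0.91 ± 0.15, each at an adjusted p of 0.0309. CRD minus CON at 18 months was 1.96 ± 0.47, 1.67 ± 0.34 and 0.57 ± 0.11 for these genes. Without 8-week CRD replicates 2 and 4 the differences were 3.87, 2.90 and 0.87, with adjusted p of 0.195, 0.195 and 0.214, so none was called. At 18 months CRD replicates 1 and 4 also had low Ttr, 35.48 and 63.95 FPKM. Replicate 4 of that age had its longest transcripts at -0.71 relative to the shortest. Without the 4 low-Ttr libraries of both ages the limma differences were 4.20, 3.23 and 0.93, each at an adjusted p of 0.106. Of the 18 interferon genes 16 were nominally higher in this difference, against 271 of all genes (1.89%), with a median of 2.03 against 0.02. Without 18-month CRD replicate 2 it was 15 of 17, with a median of 1.63. The difference between the ages in Y-linked genes given above holds for this comparison too, and its part was not tested. Of 11 MHC class I genes tested, 7 were nominally higher in the effect at 18 months minus the effect at 8 weeks, against 1.89% of all genes. When 1 library was left out, calls were 0 in 15 of the 19 fits, and 5, 8, 4 and 5 without 18-month CRD replicate 1, 18-month CRD replicate 2, 8-week CON replicate 1 and 8-week CRD replicate 3.

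In the hypothalamus at 8 weeks the interferon genes were lower too. There, 17 of 18 were negative with a median of -0.60, and 10 were nominally lower. Over all 14526 genes 0 were called (0%), 106 (0.730%) were nominal and 59 (0.406%) nominally lower. Ifi27l2a differed by -1.43 ± 0.43, Rtp4 by -0.81 ± 0.25 and Irf9 by -0.55 ± 0.17. For the hippocampus effect minus the hypothalamus effect, 0 of 14526 genes were called (0%), 1645 (11.3%) were nominal, 409 (2.82%) were nominally higher and 1236 (8.51%) nominally lower. None of the 18 interferon genes was among them; their median was -0.29, with Ifi27l2a at -0.63 ± 0.60. That these p-values miss the threshold does not show that the tissues respond alike. Libraries of both tissues carry the same replicate numbers and may come from the same mice, which the labels do not say. The hypothalamus is therefore not shown to be a second set of animals, and the main fit of the tissues did not pair them.

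Lgals3bp, a secreted glycoprotein that binds galectin 3 (chromosome 11, 118392751 to 118402092), was 1 of the 12 lower genes with the smallest p. It had 32.8, 50.2, 65.8, 25.3 and 44.2 FPKM in CON and 17.3, 10.7, 24.6, 9.49 and 18.1 in CRD. All CRD libraries lay below all CON libraries. The difference was -1.39 ± 0.31, -1.03 ± 0.34 with 3, -1.08 ± 0.24 in the hypothalamus and 1.12 ± 0.33 at 18 months.

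Of 22 clock genes, with 5 CRD libraries 5 were nominally lower (Nr1d2, Clock, Per2, Nr1d1, Ciart) and 1 higher (Cry1), against 14.1% and 6.53% of all genes. With 3, 5 were lower (Dbp, Ciart, Nr1d1, Nr1d2, Clock) and 1 higher (Cry1), against 5.78% and 2.76%. Of the 22, 7 had transcripts in the longest class. The median was -0.15 with 5 and -0.05 with 3, and -0.03 without CRD replicate 2 alone. At 18 months 7 of the 22 were nominally lower and 2 higher, against 380 (2.65%) and 369 (2.58%) of all genes. In the hypothalamus at 8 weeks it was 2 lower and 0 higher.

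Dbp, a factor driven by E-boxes and a usual readout of clock phase (chromosome 7, 45705088 to 45710203), had 61.6, 53.7, 64.9, 57.3 and 59.5 FPKM in CON. In CRD it had 43.1, 71.4, 48.4, 86.3 and 44.1. Replicates 2 and 4, the libraries with low Ttr, were above all CON libraries, and the other 3 were below all of them. The difference was -0.07 ± 0.14 with 5 CRD libraries. With 3 it was -0.39 ± 0.07, the smallest p of any gene in that fit (adjusted p = 0.557). It was -0.68 ± 0.15 at 18 months and -0.35 ± 0.17 in the hypothalamus at 8 weeks.

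Ciart, a repressor of Clock and Arntl (chromosome 3, 95878503 to 95882251), had 8.41, 8.54, 8.36, 8.03 and 9.09 FPKM in CON and 7.38, 5.80, 5.07, 10.4 and 5.51 in CRD. CRD replicate 4 was the highest of the 10 libraries and the other CRD libraries lay below all CON libraries, replicate 2 included. Its difference was -0.31 ± 0.13, and -0.45 ± 0.11 with 3. Nr1d2, a REV-ERB receptor acting as a brake on Arntl (chromosome 14, 18204054 to 18239127), had 25.9, 32.2, 27.3, 27.6 and 28.96 FPKM in CON and 20.7, 13.5, 24.5, 21.3 and 22.2 in CRD. The groups did not overlap, and the difference was -0.48 ± 0.12, or -0.33 ± 0.10 with 3. Its relative Nr1d1 differed by -0.27 ± 0.10 and -0.32 ± 0.11, with overlap. In the hypothalamus Nr1d2 differed by 0.00 ± 0.11 and Nr1d1 by -0.40 ± 0.13.

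Clock (chromosome 5, 76209868 to 76304792) had 11.03, 11.3, 9.31, 10.2 and 10.1 FPKM in CON and 8.60, 7.64, 9.0, 6.71 and 8.73 in CRD, again without overlap. It differed by -0.32 ± 0.09 and, with 3, by -0.22 ± 0.09. Its partner Arntl depended on CRD replicate 2, which had 5.24 FPKM where the other libraries had 8.33 to 12.0. Arntl differed by -0.05 ± 0.14 with 5 and by 0.20 ± 0.10 with 3, where all 3 CRD libraries lay above CON. Cry1, a late repressor of the loop (chromosome 10, 85131700 to 85185064), had 5.38, 5.06, 4.73, 6.47 and 4.68 FPKM in CON and 5.89, 4.91, 7.07, 6.78 and 7.76 in CRD, with overlap, and differed by 0.25 ± 0.10 and 0.34 ± 0.10. The Per genes had wide CRD ranges: Per1, which also answers to light and stress hormones, ran from 9.39 to 21.8 FPKM in CRD and from 16.8 to 21.0 in CON (-0.32 ± 0.20). Per2 differed by -0.45 ± 0.16, by -0.34 without CON replicate 2, and by -0.33 ± 0.17 with 3 CRD libraries. Per3 differed by -0.31 ± 0.16.

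The remaining 12 clock genes were not nominal in either fit. Tef, Hlf, Npas2, Cry2, Csnk1d and Bhlhe40 had negative values with 5 CRD libraries (-0.16, -0.13, -0.26, -0.16, -0.13 and -0.13), and in each CRD replicate 2 was the lowest of the 10 libraries. With 3 CRD libraries they lay between -0.02 and 0.05. Nfil3, a repressor that competes with Dbp for the same sites, was at 0.19 ± 0.14. Rora, Rorb, Bhlhe41 and Csnk1e were at -0.18, -0.01, -0.05 and -0.01.

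**Figure D3:**
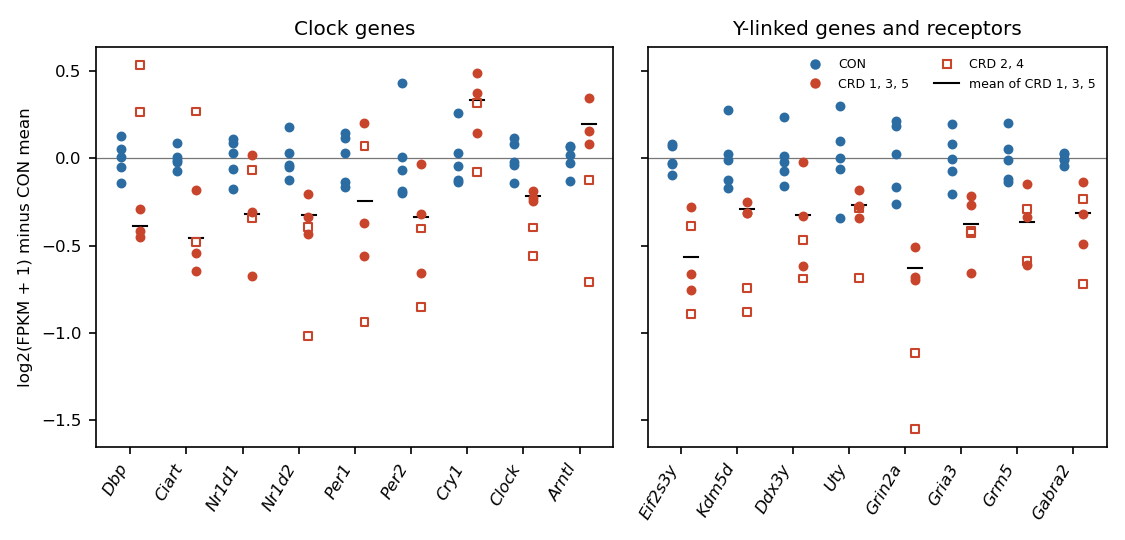
Clock genes (left), and Y-linked genes with neurotransmitter receptors (right), at 8 weeks, as log2(FPKM + 1) minus the CON mean for each library; symbols are as in the plot of interferon genes. For Dbp, CRD replicates 2 and 4 lie above CON and the other 3 CRD libraries below it.

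Chaperones of the ER were higher in the 3 CRD libraries other than replicates 2 and 4, and mixed in those. Of 13 genes of the unfolded protein response tested (of 14), all 13 were positive with 3 CRD libraries, with a median of 0.24, and 7 were nominally higher, against 2.76% of all genes. For 6 of the 13 all 3 libraries lay above CON (Calr, Hspa5, Pdia6, Dnajb9, Xbp1 and Manf), against 3.23% of all genes. With all 5 the median was 0.07 and 3 were nominally higher (Calr, Manf and Ddit3), against 6.53%. No member was nominally lower in either fit, and none was nominal in the hypothalamus or at 18 months.

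Calr, a calcium-binding lectin chaperone (chromosome 8, 84841850 to 84846934), had 164, 197, 189, 185 and 168 FPKM in CON. In CRD it had 256, 164, 235, 199 and 241. Replicates 1, 3 and 5 were above all CON libraries, replicate 4 was just above the highest of them and replicate 2 within their range. The difference was 0.26 ± 0.12 with 5 and 0.44 ± 0.10 with 3. Hspa5, the main ER chaperone (BiP), had 81.2, 122, 97.1, 109.7 and 95.8 FPKM in CON and 147, 65.1, 127, 78.01 and 133 in CRD. Replicates 2 and 4 were the lowest of all 10 libraries and the other 3 CRD libraries the highest. It differed by 0.07 ± 0.18 with 5 and 0.43 ± 0.12 with 3. Pdia3, a disulphide isomerase that works with Calr and is outside the list (chromosome 2, 121413775 to 121438687), showed the same order, with 68.4, 76.2, 75.6, 77.2 and 73.4 FPKM in CON and 98.6, 65.96, 96.8, 66.9 and 86.7 in CRD, and differed by 0.14 ± 0.10 and 0.34 ± 0.08. Pdia3 was named for its small p in the fit with 3 CRD libraries, so it does not add to the list.

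Manf, a secreted ER stress protein, had 24.4, 36.8, 24.9, 29.2 and 29.7 FPKM in CON and 40.6, 41.1, 37.6, 26.8 and 37.7 in CRD, where only replicate 4 lay within the CON range. It differed by 0.33 ± 0.13 and 0.42 ± 0.13. Xbp1, the factor spliced on ER stress (spliced and unspliced forms are not separated here), differed by 0.16 ± 0.09 and 0.27 ± 0.09. Ddit3 and Atf4, of the arm that slows translation, differed by 0.10 ± 0.09 and 0.04 ± 0.07 with 3 CRD libraries.

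Hspa8, the constitutive cytosolic chaperone (chromosome 9, 40800984 to 40810087), was higher in every CRD library. It had 950.0, 962, 929.5, 1007 and 937 FPKM in CON and 1434, 1083, 1150, 1152 and 1125 in CRD, and differed by 0.31 ± 0.11 and 0.36 ± 0.11. CRD replicate 1 was the highest for Hspa8 and stood alone for the stress-induced Hspa1a, at 19.1 FPKM against 3.83 to 6.52 in the other 9 libraries. Hspa1a differed by 0.51 ± 0.24, and by 0.19 without CRD replicate 1; reads shared with its near-identical copy Hspa1b make both uncertain. Cirbp and Rbm3, RNA-binding proteins raised by cold, differed by -0.15 ± 0.14 and -0.01 ± 0.18. Of the 10 heat- and cold-responsive genes, 2 were nominally higher with 5 CRD libraries and 6 with 3, and 0 lower, against 6.53% and 2.76% of all genes higher. Their median was 0.08 with 5 and 0.33 with 3, and 0.003 without CRD replicate 1.

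Enzymes of sterol synthesis were higher for part of the pathway. Of 22 genes, 7 were nominally higher and 0 lower with 5 CRD libraries, and 6 and 0 with 3, against 6.53% and 2.76% of all genes higher; medians were 0.03 and 0.12, and -0.02 without CRD replicate 1. In the hypothalamus 0 were higher and 1 lower, and for the difference of the tissues 5 were nominally higher against 409 of all genes (2.82%). At 18 months 0 of 22 were nominal.

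Ebp, the sterol isomerase (chromosome X, 8185329 to 8193512), was the higher gene with the smallest p. It had 9.38, 8.65, 8.94, 8.31 and 8.54 FPKM in CON and 12.3, 12.02, 11.5, 10.6 and 11 in CRD. The groups did not overlap, and CRD replicates 2 and 4 were above CON as well, with replicate 4 the lowest of the 5. The difference was 0.36 ± 0.08 (adjusted p = 0.167), 0.37 ± 0.08 with 3, 0.02 ± 0.09 in the hypothalamus and 0.08 ± 0.08 at 18 months. Fdps, which makes farnesyl diphosphate, had 45.4, 38.8, 42.5, 43.96 and 42.9 FPKM in CON and 50.2, 68.05, 50.6, 49.7 and 49.4 in CRD. Again no library overlapped, with replicate 2 the highest; the difference was 0.31 ± 0.09, and 0.23 ± 0.08 with 3.

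Fdft1, which commits farnesyl diphosphate to sterols, differed by 0.29 ± 0.08 and 0.31 ± 0.09. Sqle, the squalene epoxidase, differed by 0.21 ± 0.08 and 0.28 ± 0.08. Erg28, a scaffold of the sterol demethylating enzymes that is outside the list, had 28.3, 24.6, 26.4, 27.4 and 28.8 FPKM in CON and 34.4, 29.4, 34.3, 34.3 and 33.8 in CRD, without overlap (0.29 ± 0.08; 0.33 ± 0.08 with 3). Erg28 was named for its small p in the fit with 3 CRD libraries, so it does not add to the list. The regulator Srebf2 was at -0.06 ± 0.13 and 0.08 ± 0.10.

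**Figure D4:**
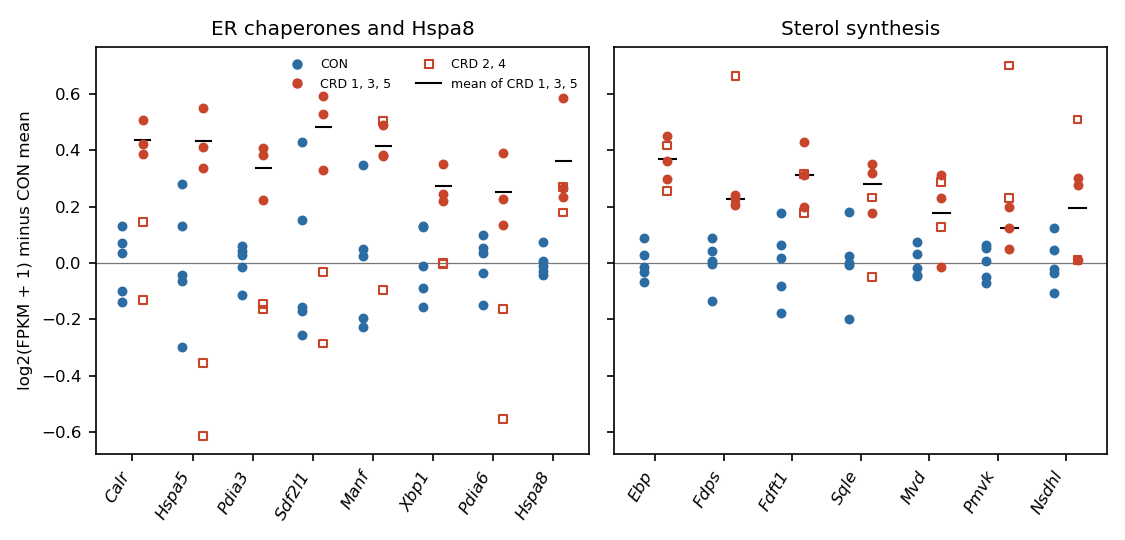
ER chaperones with Hspa8 (left) and sterol synthesis genes (right) at 8 weeks, as log2(FPKM + 1) minus the CON mean for each library; symbols are as in the plot of interferon genes. CRD replicates 2 and 4 lie at or below the CON mean for Hspa5, Pdia3 and Pdia6 but above all CON libraries for Ebp.

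Of 17 voltage-gated channel genes tested, 11 were nominally lower and 1 higher with 5 CRD libraries, and 6 and 0 with 3, against 14.1% and 5.78% of all genes lower, with medians of -0.26 and -0.24. After scaling by median of ratios 7 and 6 were lower. For 6 of the 17 all 5 CRD libraries lay below all CON libraries, against 4.43% of all genes. Of the 17 channel genes, 14 had transcripts in the longest class. Over all genes of that class the median was -0.21 with 5 CRD libraries and -0.11 with 3, and 39.5% and 12.0% were nominally lower, against 2.4% and 3.4% of the shortest class. In the hypothalamus the channel genes had a median of 0.08 with 0 nominally lower, and the longest class one of 0.04. For the difference of the tissues 9 of 17 were nominally lower, against 8.51% of all genes.

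Kcnma1, the BK potassium channel, had 17.4, 17.7, 16.2, 17.2 and 18.3 FPKM in CON and 14.8, 11.4, 12.3, 12.4 and 15.6 in CRD. The groups did not overlap, and the difference was -0.37 ± 0.11, or -0.27 ± 0.12 with 3. Scn1a, a sodium channel, had 8.22, 10.3, 7.91, 8.40 and 7.93 FPKM in CON and 7.06, 6.48, 5.35, 5.77 and 7.01 in CRD, also without overlap (-0.38 ± 0.12; -0.36 ± 0.14 with 3). Cacna1e, a calcium channel subunit, differed by -0.57 ± 0.19 without overlap, and by -0.47 ± 0.23 with 3, no longer nominal. Kcnq3 differed by -0.30 ± 0.10. Hcn2, a pacemaker channel, was the member that was nominally higher, at 0.27 ± 0.11, with 84.8 and 66.9 FPKM in CRD replicates 2 and 4; with 3 it differed by 0.06 ± 0.07.

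Of 22 glutamate receptor genes, 5 were nominally lower with 5 CRD libraries and 7 with 3, and 0 higher, against 14.1% and 5.78% of all genes lower. Medians were -0.11 and -0.14. Of the 22, 12 were in the longest class, where 39.5% and 12.0% of genes were nominally lower. Grin2a, the NMDA receptor subunit that takes over as the brain matures (chromosome 16, 9567898 to 9995560), had 5.39, 5.52, 3.69, 4.02 and 4.71 FPKM in CON and 2.46, 0.92, 2.51, 1.59 and 2.95 in CRD. Every CRD library lay below every CON library, with replicates 2 and 4 the lowest. The difference was -0.91 ± 0.22, -0.63 ± 0.22 with 3, -0.62 ± 0.23 at 18 months and 0.04 ± 0.16 in the hypothalamus; the difference of the tissues was -0.95 ± 0.23 (adjusted p = 0.429), 1 of the 3 with the smallest p there. The other 2 were Lemd3, an inner nuclear membrane protein gene (-0.39 ± 0.09), and Col25a1, a membrane collagen (-0.76 ± 0.17).

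Gria3, an AMPA receptor subunit, and Grm5, a metabotropic receptor, also had no overlap (-0.40 ± 0.12 and -0.39 ± 0.12; -0.38 ± 0.15 and -0.36 ± 0.13 with 3). Grin2b, the juvenile NMDA subunit, was at 10.8 FPKM in CRD replicate 2 and at 1.81 to 2.87 in the other 9 libraries. Of 18 GABA receptor and synthesis genes, 7 were nominally lower with 5 CRD libraries and 5 with 3, and 2 in each after median-of-ratios scaling, against 14.1% and 5.78% of all genes before it. Of these 18, 6 were in the longest class, with its shares of 39.5% and 12.0% nominally lower. Gabra2 had 45.4, 45.5, 46.6, 46.4 and 44.2 FPKM in CON and 32.1, 38.7, 36.4, 27.3 and 41.5 in CRD, without overlap, and differed by -0.38 ± 0.11 and -0.31 ± 0.11.

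Of 18 chromatin regulators and other genes with long transcripts, all 18 in the longest class, 10 were nominally lower with 5 CRD libraries and 5 with 3, and 0 higher, with medians of -0.31 and -0.19, the share of the longest class being 39.5% and 12.0%. Kmt2c, a histone methyltransferase, had 5.67, 7.09, 5.11, 5.41 and 5.22 FPKM in CON and 4.62, 4.03, 3.83, 3.55 and 4.33 in CRD, without overlap (-0.40 ± 0.12; -0.34 ± 0.14 with 3).

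Immediate early genes, which neurons switch on when active, were negative for 18 of 18 with 5 CRD libraries, with a median of -0.19. Of these 4 were nominally lower, against 14.1% of all genes, and 3 were in the longest class. With 3 CRD libraries 1 was nominally lower (Npas4), against 5.78%, and the median was -0.12. Npas4, a factor specific to activity, had 7.15, 9.69, 3.31, 5.87 and 5.09 FPKM in CON and 4.76, 4.99, 1.42, 3.25 and 3.66 in CRD, with overlap. It differed by -0.65 ± 0.27, by -0.43 without CRD replicate 3, and by -0.78 ± 0.32 with 3 libraries. Of 10 markers of dentate granule cells, 4 were nominally lower with 5 CRD libraries and 1 with 3, against 14.1% and 5.78% of all genes, with medians of -0.22 and -0.18. Of these markers 6 were in the longest class, which itself had medians of -0.21 and -0.11 and shares of 39.5% and 12.0% nominally lower. Prox1, the factor that sets granule cell identity, had 14.9, 15.6, 14.3, 15.1 and 14.98 FPKM in CON and 9.99, 8.42, 11.3, 10.8 and 14.1 in CRD. The groups did not overlap, with CRD replicate 5 just under CON (-0.44 ± 0.12; -0.33 ± 0.12 with 3). C1ql2, of the same cells, did not follow, with 26.02 to 61.0 FPKM in CRD and 31.6 to 35.7 in CON.

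All 4 Y-linked genes tested were nominally lower in CRD in both fits, against 14.1% and 5.78% of all genes, with medians of -0.46 and -0.31. After median-of-ratios scaling 4 were lower with 5 CRD libraries and 3 with 3. Eif2s3y, a subunit of a translation initiation factor (chromosome Y, 1010543 to 1028847), had 30.5, 30.3, 28.2, 28.1 and 26.9 FPKM in CON and 17.8, 21.8, 16.6, 15.1 and 23.6 in CRD. The groups did not overlap, and the difference was -0.60 ± 0.11 (adjusted p = 0.167), the smallest p of any gene with 5 CRD libraries, and -0.57 ± 0.12 with 3. Kdm5d, a histone demethylase (chromosome Y, 897788 to 956786), had 5.01, 6.33, 5.17, 4.38 and 4.56 FPKM in CON and 3.87, 2.29, 4.09, 2.62 and 3.88 in CRD, without overlap (-0.50 ± 0.11; -0.29 ± 0.09 with 3). Ddx3y differed by -0.42 ± 0.10 and Uty by -0.35 ± 0.11. In the hypothalamus Eif2s3y differed by -0.14 ± 0.16 and the list median was 0.01. At 18 months these genes were at 0.92 FPKM or less, too low for a comparison of the schedules. These genes have close X-linked relatives, and the division of shared reads among them is not known here. Each 8-week library of the hippocampus had all 4 at 2.29 FPKM or more.

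The other genes with the smallest p included several of metabolism among the higher ones. Gyg, glycogenin, the primer of glycogen, had 20.7, 15.7, 19.9, 20.2 and 19.9 FPKM in CON and 28.1, 28.3, 24.1, 24.9 and 23.8 in CRD, without overlap (0.41 ± 0.09; 0.38 ± 0.10 with 3; -0.02 ± 0.08 in the hypothalamus). G6pdx, which opens the pentose phosphate pathway, differed by 0.27 ± 0.07, Akr1a1, an aldehyde reductase, by 0.29 ± 0.08, and Gsta4, a glutathione transferase, by 0.34 ± 0.09. Coq8a, needed for coenzyme Q, differed by 0.34 ± 0.08, and Rbfa and Ptcd2, of mitochondrial RNA handling, by 0.41 ± 0.10 and 0.30 ± 0.08. Hsdl1, Cidea, Ilf2 and Dym were at 0.25, 0.37, 0.30 and 0.41. With 3 CRD libraries these 11 genes lay between 0.21 and 0.38. Nominally higher genes also varied with transcript length. They were 15.4% of the shortest class with 5 CRD libraries and 3.7% with 3, against 0.6% and 0.5% of the longest. The part of length in the single genes named here and in the next paragraph was not tested.

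Among the lower ones, Vegfa, the growth factor of blood vessels, had 29.6, 43.6, 32.95, 28.8 and 31.5 FPKM in CON and 26, 14.2, 24.1, 18.01 and 21.7 in CRD. CON replicate 2 was high and CRD replicate 2 low, and the groups did not overlap (-0.67 ± 0.15; -0.45 ± 0.14 with 3). Gucy1a2, a subunit of the nitric oxide receptor, differed by -0.51 ± 0.12, Dmxl1, a regulator of the proton pump of vesicles, by -0.57 ± 0.13, and Dock11, an activator of Cdc42, by -0.39 ± 0.09. B3galt2, Tnfaip8l3 and Plcxd3 were at -0.33, -0.43 and -0.46. With 3 CRD libraries Ulk3, a kinase of autophagy, was among the 6 lower genes with the smallest p (-0.46 ± 0.12), and Anxa7, an annexin, among the 6 higher (0.26 ± 0.07).

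**Figure D5:**
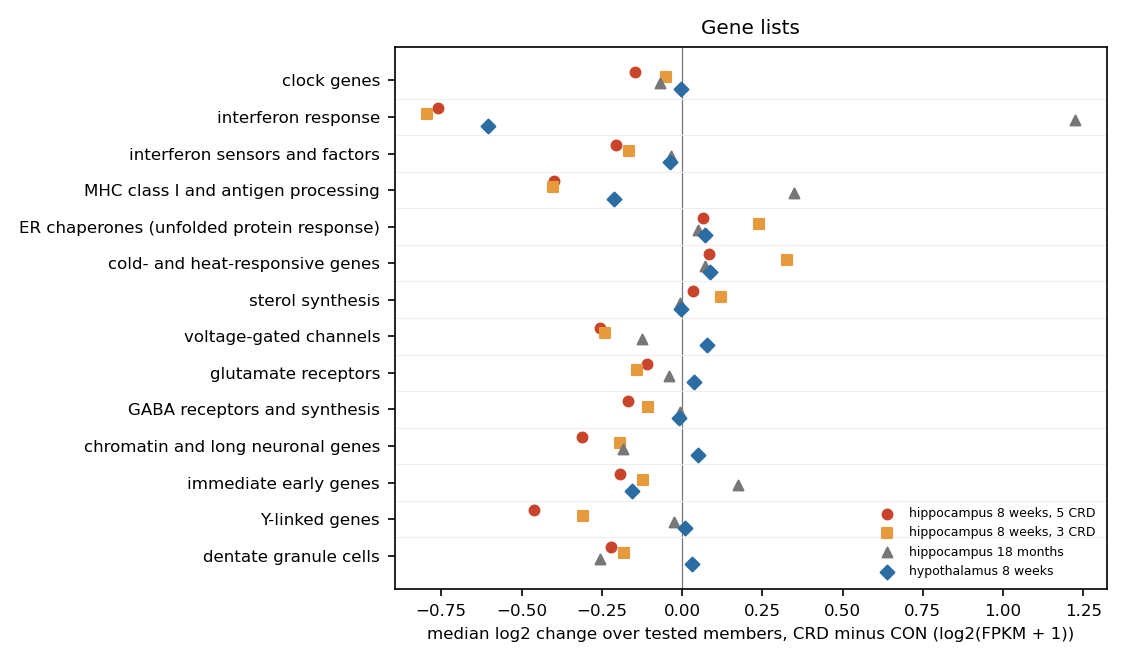
Median log2(FPKM + 1) difference, CRD minus CON, over the tested members of 14 gene lists, for the hippocampus at 8 weeks with 5 and with 3 CRD libraries, the hippocampus at 18 months and the hypothalamus at 8 weeks. The interferon list lies at -0.76, -0.79, 1.22 and -0.60 in these comparisons, and the voltage-gated channels at -0.26, -0.24, -0.12 and 0.08.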

How the data were processed

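The authors deposited 1 table of FPKM values covering 20673 genes and 78 libraries, rounded to 2 decimals. The submitters' processing notes name GRCm38 as the build and, without versions or order, RSEM, HISAT2, Bowtie2 and DESeq2. Per the labels' protocols, RNA was extracted with Trizol, selected with oligo(dT) beads and primed with random hexamers. The absolute depth is unknown.

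From there, genes averaging 0.5 FPKM or more entered limma 3.58.1 (R 4.3.3; prior variance following mean level) on log2(FPKM + 1), as 1 model of 4 groups over the 19 hippocampus libraries, or 17 without CRD replicates 2 and 4 of 8 weeks. The hypothalamus entered a model of 20 libraries of 8 weeks. Differences are CRD minus CON with SE, and understate changes of low genes. The 8-week fit was also run on simulated data with independent noise for each gene. Those data held no low-Ttr libraries and no length differences, so the run does not bear on these features. Transcript lengths (for 98.7% of tested genes) and coordinates came from GENCODE (GRCm38).

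The libraries and the 43 gene lists, of which 14 are described one by one, were chosen with earlier results of these data known. Named were the 12 higher and 12 lower genes with the smallest p (6 and 6 without replicates 2 and 4), up to 6 called genes, or 3 where none was called, for each difference of effects, all clock and interferon genes, and up to 4 members of each other described list. These had a mean of at least 1 FPKM where chosen by p, and predicted genes were left out. Other genes in the text, such as Hspa5, Pdia6, Stat2, Srebf2 and Grin2b, were chosen after their values were seen. Some members of the lists are counted in them but not reported here by name.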

Additional observations from a re-analysis of the deposited data

Results flagged for a closer look

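In the 114 named genes, 1 library stood far from the other 4 of its group in 23 of 228 groups of 5; chance gives about 1 in 20. CRD replicate 2 was the one in 6: it was lowest for Tef (59.68 FPKM), Npas2 (2.79), Cry2 (15.04) and Erg28 (29.35) and highest for Ptcd2 (22.14) and Fdps (68.05). CON replicate 2 stood out more often than CRD replicate 2. It was highest for 5 genes, Kmt2c (7.09 FPKM), Per2 (13.29), Col25a1 (10.14), Vegfa (43.61) and Scn1a (10.28), and lowest for 2, Rbfa (14.86) and Gyg (15.74). CRD replicate 3 was highest for the interferon-responsive genes Oasl2 (4.19 FPKM), Ifi44 (0.39) and H2-K1 (24.91). CRD replicate 1 was highest for the heat shock genes Hspa8 (1434.45 FPKM), Hspa1a (19.06) and Hspa1b (22.44). CON replicate 1 was lowest for Ifit3b (2.83 FPKM), CON replicate 3 highest for Tlr3 (6.40), CON replicate 5 highest for Psmb9 (6.16) and CRD replicate 4 lowest for Manf (26.80).

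The effects of CRD at the 2 ages differed by limma for Ifi27l2a (4.01), Rtp4 (2.91) and Epsti1 (0.911), as 18 months minus 8 weeks on the log2 scale, each at an adjusted p of 0.0309. All 18 interferon genes had a positive difference. Y-linked genes were expressed at 8 weeks and near 0 at 18 months (Eif2s3y at 15.05 to 30.54 and 0.14 to 0.69 FPKM), so that age and this difference between the animals cannot be told apart. Over 30 alternatives the adjusted p ran from 0.003 to 0.195 for Ifi27l2a and Rtp4 and from 0.004 to 0.358 for Epsti1.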

How the results depend on the processing

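The 8-week comparison called 0 genes in each alternative with 5 CRD libraries and in each of the 19 fits without 1 library. Its 2948 nominal genes (unadjusted p under 0.05) were 1223 without CRD replicates 2 and 4, 1806 without the 4 low-Ttr libraries of both ages and 1597 with the choroid plexus level as a covariate, and 1759 to 3920 when 1 library was left out (without CON replicate 2 and CRD replicate 3). Without CRD replicates 2 and 4, calls were 0 except 1 on log2(FPKM + 0.1) (Hist1h4d), 1 without a filter (Tex12), both named after their values were seen, and 3982, with 5846 nominal, under sample weights, whose estimate did not converge (22.9 for CRD replicate 5). Leaving out 1 library more gave 0 calls and 577 to 1843 nominal genes (1223 before), lowest without CON replicate 2 and highest without 18-month CRD replicate 4. The 3 calls between ages were 0 without CRD replicates 2 and 4, 0 without the 4 low-Ttr libraries, 0 with a robust prior, 9 with the covariate, 15 with sample weights, and 0 to 8 without 1 library (8 without 18-month CRD replicate 2). The 363 nominal genes there were 586 without a filter, 579 without CRD replicates 2 and 4, 550 with the covariate, 751 with weights and 241 to 551 without 1 library. Between tissues calls stayed at 0, and 1645 nominal genes were 773 without CRD replicates 2 and 4 (or the 4 low-Ttr libraries), 674 with the covariate and 936 to 2421 without 1 library.

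With the replicate number as a block, nominal genes without CRD replicates 2 and 4 were 640 and calls between ages 1; no other count passed 1.5 times. Same-numbered libraries correlated at -0.16 to 0.38 in their deviations, and differently numbered ones at -0.34 to 0.19. The highest values, 0.38 and 0.33, belonged to same-numbered libraries, replicates 4 and 3. Whether the numbers pair the samples is thus not known, and the main fits did not pair them.

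Signs turned for clock genes near 0: Bhlhe41 (0.0021), Csnk1e (0.045) and Rorb (0.032) with median-of-ratios scaling, Arntl (0.20), Hlf (0.032), Npas2 (0.055) and Rorb (0.038) without CRD replicates 2 and 4, with or without the other low-Ttr libraries, Arntl (0.019) with the covariate, and Arntl (0.15), Cry2 (0.031), Csnk1d (0.0065), Rorb (0.021) and Tef (0.012) with weights. Without 1 library Npas2 ran from -0.36 to 0.0067, Cry2 from -0.22 to 0.0080, Csnk1d from -0.20 to 0.032, Hlf from -0.23 to 0.0090, Bhlhe40 from -0.21 to 0.028 and Arntl from -0.15 to 0.12, each highest without CRD replicate 2. In the same fits Csnk1e ran from -0.040 to 0.024, Rorb from -0.059 to 0.044 and Dbp from -0.22 to 0.023. The cause was not tested. Of 1704 values of single genes and lists under alternatives, 1626 kept their direction and side of the threshold or stayed within the replicate spread, and of 2861 without 1 library, 2763 did. The fits without each 18-month library for the interferon list were chosen after seeing the data. The depth of the libraries is unknown and limits what low genes can show.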

Other observations

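Of 18 synaptic scaffold and vesicle genes, 5 had all CRD libraries below all CON libraries with 5 and with 3 CRD libraries (Shank1, Shank2, Shank3, Bsn and Pclo, named after their values were seen), against 4.43% and 6.40% of all genes; 8 of the 18 were in the class of longest transcripts. Shank3, a scaffold of excitatory synapses, had 50.7, 52.5, 54.6, 55.9 and 56.1 FPKM in CON and 45.95, 42.8, 49.6, 48.9 and 47.3 in CRD. By the nominal measure 3 of the 18 were higher and 6 lower with 5 CRD libraries, and 2 and 1 with 3, with medians of -0.03 and -0.02. Cytosolic ribosomal proteins had a median of 0.21 over 24 genes with 5 CRD libraries and -0.02 with 3, and oxidative phosphorylation 0.19 over 24 and 0.04. The median transcript lengths of these lists were 1240 and 896 bases, within the range of the shortest class. Over all genes of that class the median was 0.11 with 5 CRD libraries and 0.02 with 3. With 5 CRD libraries the choroid plexus list had a median of -1.06 with 18 of 18 negative, and with 3 it was 0.27 with 17 of 18 positive. Replicates 2 and 4 were set aside for low Ttr, which is in this list, so the change of sign followed from that choice. Markers of meningeal fibroblasts stood at -0.06 and 0.27, of endothelial cells at -0.11 and -0.07, and of pericytes at -0.15 and -0.06. With 5 CRD libraries 3 of 12 endothelial and 2 of 10 pericyte markers were nominally lower and 0 higher, against 14.1% of all genes lower. With 3 CRD libraries 0 of either were nominal. Red cell transcripts, 5 tested, stood at 0.51 and 0.21, and hypothalamic markers, 9 tested, at 0.34 and 0.06. With 5 CRD libraries 2 red cell and 3 hypothalamic genes were nominally higher and 0 lower, against 6.53% of all genes higher. With 3 CRD libraries 0 of either were nominal. Markers of astrocytes (-0.06 and 0.04), oligodendrocytes (0.11 and 0.04), CA1 (0.01 and 0.07) and CA3 pyramidal cells (0.07 in both) and interneurons (0.09 and 0.02) were near 0. So were activated microglia genes (-0.01 and -0.02), with 1 of 15 nominally higher in both fits. Glucocorticoid-induced genes, a readout of stress hormones, stood at -0.19 with 1 of 14 nominally lower and, with 3 CRD libraries, at -0.11 with 0 nominal.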
